A study of Mus musculus with 21 samples.

Results

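The genes described here are 9 genes of matrix proteolysis and of the storage of transforming growth factor beta (TGF-beta) in the mouse heart: the 4 tissue inhibitors of metalloproteinases Timp1, Timp2, Timp3 and Timp4, the proteases Mmp2 and Htra3, the latent TGF-beta binding protein gene Ltbp4, the TGF-beta ligand gene Tgfb1 and the fibrillin gene Fbn1. They were chosen by gene symbol, and all 9 were found among the 20960 genes of the table. The symbols were selected on levels measured in these same sections and treatment groups, with no threshold or contrast recorded, so the p-values below describe these libraries and are no independent evidence. The hearts came from adult male wild-type mice that received polystyrene nanoplastics, plastic particles of nanometre size, for 8 weeks (4 mice), or distilled water over the same time as the control (3 mice). The sources used here state neither dose nor route. Each heart was cut into an atrial section, a right ventricle and a left ventricle, and each piece gave 1 bulk library of polyadenylated RNA, which makes 21 libraries. No allele, transgene or other agent is named for either group.

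Matrix metalloproteinases cut collagens and other matrix proteins outside the cell, and the TIMP proteins block them by binding their catalytic site. TGF-beta is secreted in a latent complex that LTBP proteins tether to fibrillin microfibrils, from which integrins, proteases or mechanical pull release it. In the heart these genes are mostly studied in scarring, where cardiac fibroblasts make much of the matrix and of its proteases.

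The libraries held 413436 to 2439314 counts, apart from the right ventricle of nanoplastics mouse 2, which held 4662 counts. Levels are CPM, counts brought to a common library size, with library sizes adjusted by TMM, the trimmed mean of M-values. None of the 9 genes had a count in that library, where a count of 0 allows up to 643.5 CPM on the library's own total, so it is left out of every level and mean below, while the fits keep it. Levels are compared within a gene only, because it is not given whether counts grow with transcript length in this protocol, which marks the 5′ end of each RNA. The labelled atrial sections varied widely in atrial muscle transcripts. Their summed markers (Myl7, Myl4, Sln and Bmp10) had a median of 66.6 CPM in the 7 atrial sections, with a range from 10.1 to 38990 CPM, and Bmp10 was at 0 in all of them. In right and left ventricles these markers had medians of 10.4 and 10.7 CPM and maxima of 100 and 1605 CPM. Ventricular muscle markers (3 genes) had medians of 10689 CPM in atrial sections, 9379 CPM in right ventricles and 9758 CPM in left ventricles. Section names below are those of the labels, and how much atrium each atrial section held was not tested. Fibroblast markers (10 genes) summed to 1439 to 2868 CPM in the atrial sections (median 2206, n = 7), against 1170 to 1718 CPM in the right ventricles (median 1398, n = 6) and 1144 to 1691 CPM in the left ventricles (median 1375, n = 7). In bulk tissue, more cells of a type and more RNA per cell cannot be told apart.

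Between sections, 2 of the 9 genes passed the test. Timp3, which encodes the matrix-bound TIMP that also inhibits ADAM proteases such as ADAM17, was higher in the atrial section than in either ventricle. Ltbp4, whose product binds latent TGF-beta1 and takes part in elastic fibre assembly, was higher in the atrial section than in the right ventricle. Timp2, Mmp2 and Fbn1 had positive differences in the same contrasts that did not pass, and Timp4 stayed near 0.

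Timp3 measured 66.7, 52.4, 70.5 and 37.8 CPM in the atrial sections of nanoplastics mice 1 to 4 and 94.6, 35.9 and 55.8 CPM in those of control mice 1 to 3. In the right ventricles it measured 27.2, 39.2 and 43.4 CPM in nanoplastics mice 1, 3 and 4 and 35.2, 23.2 and 39.2 CPM in control mice. Left ventricles held 24.3, 24.1, 29.4 and 35.4 CPM in nanoplastics mice and 28.6, 28.6 and 44.3 CPM in control mice. The atrial value was above the left ventricular value of the same heart in 7 of 7 mice and above the right ventricular value in 5 of 6, with nanoplastics mouse 4 as the exception. The atrial mean of 59.1 ± 20.4 CPM (SD, n = 7) stood against 34.6 ± 7.8 CPM in right ventricles (n = 6) and 30.7 ± 7.09 CPM in left ventricles (n = 7). The log2 difference was 0.96 for atrial section over left ventricle (SE 0.19, edgeR adjusted p = 0.0327) and 0.82 for atrial section over right ventricle (SE 0.17, edgeR adjusted p = 0.00228). Both ventricles lay close together, at a log2 difference of 0.10 for right over left (95% interval -0.22 to 0.42).

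Ltbp4 measured 69.3, 11.8, 41.3 and 10.8 CPM in the atrial sections of nanoplastics mice and 24.8, 9.21 and 17.2 CPM in those of control mice. The right ventricles held 4.95, 6.99 and 15.3 CPM in nanoplastics mice 1, 3 and 4 and 8.8, 5.94 and 6.3 CPM in control mice. The left ventricles held 7.37, 5.74, 7.6 and 28.1 CPM in nanoplastics mice and 9.24, 6.71 and 12.3 CPM in control mice. The highest atrial libraries were those of nanoplastics mice 1 and 3, and in nanoplastics mouse 4 the order was turned round, with the atrial section below both ventricles. The atrial section exceeded the right ventricle in 5 of 6 hearts and the left ventricle in 6 of 7. The log2 difference of atrial section over right ventricle was 1.60 (SE 0.27, edgeR adjusted p = 7.63e-05), and that over the left ventricle was 1.2 (SE 0.55, edgeR adjusted p = 0.426).

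**Figure D1:**
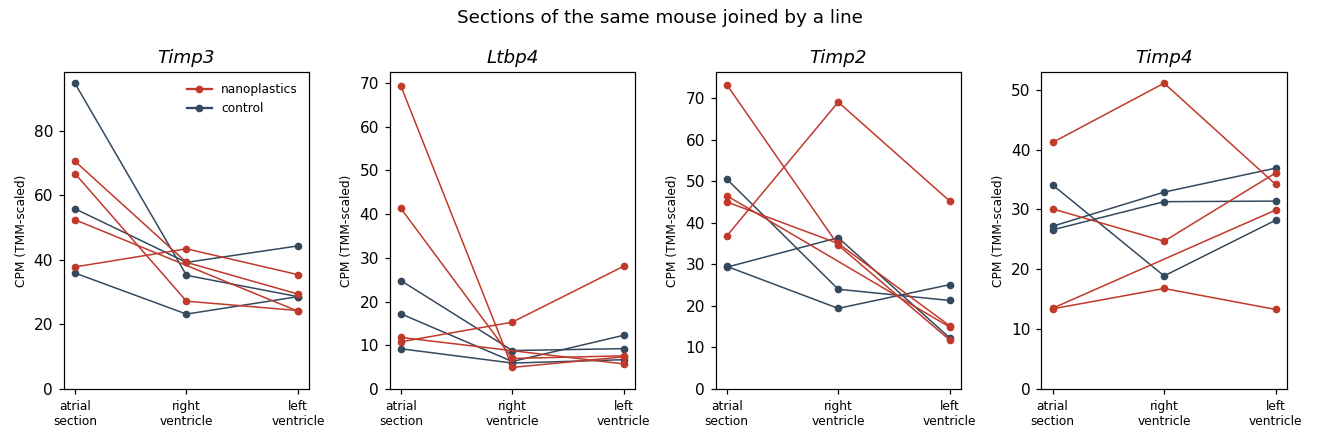
Levels of Timp3, Ltbp4, Timp2 and Timp4 (vertical axes, TMM-scaled CPM) in the atrial section, right ventricle and left ventricle, with the sections of a mouse joined by a line; nanoplastics mouse 2 has no right ventricular point, so its line runs straight from the atrial section to the left ventricle. Timp3 is highest in the atrial section in 6 of 7 hearts, Ltbp4 reaches 69.3 CPM in 1 atrial section, and Timp4 shows no common slope.

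Timp2, whose protein both inhibits metalloproteinases and helps Mmp14 to activate Mmp2, averaged 44.4 ± 15.2 CPM in atrial sections, 36.4 ± 17.4 CPM in right ventricles and 20.8 ± 11.8 CPM in left ventricles (SD, n = 7, 6 and 7). Its log2 difference was 1.09 for atrial section over left ventricle (SE 0.28, edgeR adjusted p = 0.159, higher in 6 of 7 hearts) and 0.51 for right over left ventricle (SE 0.18, edgeR adjusted p = 0.531, higher in 5 of 6 hearts). Mmp2, the gelatinase A gene, averaged 18.9 ± 6.87 CPM in atrial sections, 12.3 ± 6.76 CPM in right ventricles and 9.83 ± 6.53 CPM in left ventricles, with a log2 difference of 0.99 for atrial section over left ventricle (SE 0.29, edgeR adjusted p = 0.168). For Fbn1, the main structural gene of microfibrils, the means were 13.6 ± 2.88 CPM in atrial sections, 9.88 ± 4.43 CPM in right ventricles and 7.88 ± 4.82 CPM in left ventricles, and the log2 difference of atrial section over left ventricle was 0.82 (SE 0.30, edgeR adjusted p = 0.253). For these genes the neighbouring sections overlapped within their SD.

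The remaining members differed less between sections or were too low to test. Htra3, a secreted serine protease gene whose mouse protein can dampen TGF-beta signalling, averaged 20.6 ± 10.1 CPM in atrial sections, 17.1 ± 7.62 CPM in right ventricles and 14.0 ± 3.88 CPM in left ventricles. Timp4, the TIMP best known from the heart, averaged 26.6 ± 10.2, 29.3 ± 12.5 and 30.0 ± 8.04 CPM in that order, and its log2 difference of atrial section over left ventricle was -0.15 (95% interval -0.49 to 0.20). Tgfb1 averaged 6.35 ± 3.69, 5.26 ± 2.56 and 5.93 ± 2.55 CPM, and Timp1, the inducible and soluble TIMP, 10.2 ± 5.67, 3.64 ± 2.99 and 4.33 ± 4.36 CPM. Both fell below the count filter in the section comparisons. Timp1 was higher in the atrial section than in the left ventricle in 6 of 7 hearts, and with no filter its log2 difference was 1.23 (SE 0.33, edgeR adjusted p = 0.0313).

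Across all genes, 0.155% passed between atrial section and left ventricle (8 of 5176), 0.606% between atrial section and right ventricle (30 of 4954) and 0.02% between right and left ventricle (1 of 5012). Among the members this was 1 of 7 tested (Timp3), 2 of 7 tested (Timp3 and Ltbp4) and 0 of 5 tested. At an unadjusted p under 0.05 the counts were 5, 4 and 1, beside 12.6%, 7.27% and 5.21% of all genes tested, and DESeq2 passed 2 members (Timp2 and Timp3), 0 and 0, among 8, 4 and 0 genes in all. The members' median log2 difference was 0.96, 0.53 and 0.10, against 0.01, 0.02 and -0.01 over all genes. These passes rest on few libraries. Timp3 over the left ventricle lost its pass without nanoplastics mouse 2, nanoplastics mouse 3 or control mouse 1 (edgeR adjusted p = 0.133, 0.228 and 0.293), and when the mouse was not a block (0.0597). Over the right ventricle, leaving out the library of 4662 counts brought Timp3 to an edgeR adjusted p of 0.0984 and Ltbp4 to 0.0499, and without nanoplastics mouse 2 as a whole they stood at 0.11 and 0.0612. Without control mouse 1 Timp3 stood at 0.212 there and Ltbp4 was no longer tested, nor was it without control mouse 3, and without the block the values were 0.444 and 0.717. The atrial sections of nanoplastics mice 1 and 4 hold the most atrial muscle transcripts. Without them Timp2, Timp3, Mmp2 and Ltbp4 passed over the left ventricle (edgeR adjusted p = 0.000187, 0.00014, 0.0138 and 0.00164), and the same 4 passed without nanoplastics mouse 4. Calls over all genes grew with them, to 133 and 98, against 8 with all libraries.

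Fibroblast markers moved with these section differences. Of 7 tested, Col1a2 passed over the left ventricle, and Col1a2 and Gsn over the right (Gsn log2 difference 0.707, edgeR adjusted p = 0.012). DESeq2 passed 1 fibroblast marker over the left ventricle and 0 over the right. Per 1000 fibroblast-marker counts of the same library, Timp3 had 28.7 ± 8.69 counts in atrial sections, 23.1 ± 4.16 in right ventricles and 20.1 ± 5.45 in left ventricles (SD, n = 7, 6 and 7). Ltbp4 had 11.4 ± 6.29, 5.39 ± 2.3 and 7.13 ± 4.8 on that scale. Timp2 had 21 ± 2.17, 23.9 ± 9.68 and 13.7 ± 7.81, Mmp2 9.17 ± 2.3, 8.27 ± 4.3 and 6.38 ± 4.01, and Fbn1 6.8 ± 1.96, 6.63 ± 2.87 and 4.93 ± 2.72. The ranges overlapped between sections for all 5 genes, and the part of fibroblast content in the differences was not tested. Markers of some other cell types also moved with the sections. Endothelial markers (9 genes) had near-equal medians of 1246 CPM in atrial sections, 1249 CPM in right ventricles and 1218 CPM in left ventricles. Over the left ventricle 0 of 7 tested had an unadjusted p under 0.05, and over the right 1 of 7. Macrophage markers (8 genes) summed to a median of 714 CPM in atrial sections (473 to 985), 508 CPM in right ventricles (394 to 906) and 429 CPM in left ventricles (379 to 927), and of 5 tested over the left ventricle all 5 were higher at an unadjusted p under 0.05 and 0 passed. Smooth muscle and pericyte markers (8 genes) had medians of 389, 378 and 354 CPM in the 3 sections, with a median log2 difference of 1.00 over the 4 genes tested between atrial section and left ventricle, of which 0 passed and 2 had an unadjusted p under 0.05. Mesothelial markers (4 genes, too low to test) had medians of 8.35 CPM in atrial sections, 1.76 CPM in right ventricles and 2.37 CPM in left ventricles. Red blood cell markers (5 genes) had medians of 288, 1132 and 763 CPM in the same sections, and Hbb-bs and Hbb-bt were lower in the atrial section than in the right ventricle (log2 difference -1.47 and -1.42, edgeR adjusted p = 0.00969 and 3.27e-10). Hbb-bt was also higher in the right than in the left ventricle (log2 difference 0.735, edgeR adjusted p = 0.00413). The part of these cells in the members' differences was not tested.

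The promoters of Timp3 and Ltbp4, which varied together across libraries, and of Timp4, which did not follow them, are shown from 250 bases before to 50 bases after the gene start, as RefSeq gives them on GRCm38.p6. Capitals mark every match, on either strand, to the GC box GGGCGG, the CCAAT box CCAAT, the SMAD-type motif CAGACA, the AP-1 motif TGANTCA, the TATA box TATAAA and the TEAD motif CATTCC. The Timp3 window is chr10:86300162-86300461 on the plus strand, the Ltbp4 window chr7:27337563-27337862 on the minus strand, the first of 3 entries for that gene, and the Timp4 window chr6:115252156-115252455 on the minus strand.
Timp3: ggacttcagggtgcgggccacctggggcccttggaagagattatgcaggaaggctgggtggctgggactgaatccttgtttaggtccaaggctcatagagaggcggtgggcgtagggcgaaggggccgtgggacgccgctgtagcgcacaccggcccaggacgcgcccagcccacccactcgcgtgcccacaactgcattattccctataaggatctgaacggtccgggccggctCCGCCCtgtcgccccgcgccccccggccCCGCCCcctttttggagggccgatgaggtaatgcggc
Ltbp4: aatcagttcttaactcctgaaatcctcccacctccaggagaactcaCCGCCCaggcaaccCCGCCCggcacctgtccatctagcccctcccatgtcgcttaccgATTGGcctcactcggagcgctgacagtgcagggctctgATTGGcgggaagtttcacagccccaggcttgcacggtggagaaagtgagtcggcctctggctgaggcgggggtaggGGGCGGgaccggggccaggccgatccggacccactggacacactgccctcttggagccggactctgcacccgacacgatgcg
Timp4: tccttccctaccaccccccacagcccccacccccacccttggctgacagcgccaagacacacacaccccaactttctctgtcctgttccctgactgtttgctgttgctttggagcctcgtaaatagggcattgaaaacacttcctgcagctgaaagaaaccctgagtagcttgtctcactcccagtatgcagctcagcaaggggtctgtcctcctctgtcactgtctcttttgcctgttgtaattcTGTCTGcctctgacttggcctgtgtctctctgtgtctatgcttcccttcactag
The Timp3 window has 67% G and C and holds 2 GC boxes, and the Ltbp4 window has 64.3% and holds 3 GC boxes and 2 CCAAT boxes. Entries 2 and 3 of Ltbp4, not shown, hold 7 and 9 GC boxes and 0 CCAAT boxes. Timp4 has 53.3% G and C, no GC box and 1 CAGACA match. Of 32851 promoters of this length, 35.7% hold a GC box, 37.4% a CCAAT box and 21% CAGACA. RefSeq entries were matched for 8 of the 9 genes, all but Mmp2. Besides Timp3 and Ltbp4, the windows of Timp1, Timp2, Tgfb1 and Fbn1 held a GC box and those of Timp4 and Htra3 none, while none of the 8 genes had an AP-1 or a TATA match (found in 7.81% and 13.6% of all promoters). Letters that match a motif do not show that a factor binds.

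With the 3 sections of each mouse added up to a whole heart, none of the 9 genes passed the test between nanoplastics and control mice. Ltbp4, Fbn1 and Timp2 had the smallest p-values, each with the higher mean in nanoplastics hearts, while Timp3, Timp4 and Htra3 had nearly equal means. The count was 0 of 9, beside 2.56% of all genes tested (217 of 8485), and at an unadjusted p under 0.05 it was 3 of 9, beside 18.2% (1541 genes). DESeq2 also passed 0 of the 9 genes. Of the 9 log2 changes, 8 were positive with TMM, with a median of 0.33 against -0.03 over all genes. With library totals alone 6 of 9 were positive and the median of all genes was -0.27, and at equal weight of the sections 3 of 9 were positive and the median of all genes was -0.27 too. Here and below, equal weight means averaging log2 CPM over the sections of a mouse. The library of 4662 counts kept full weight in nanoplastics mouse 2, so these values do not show section weight alone.

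Ltbp4 measured 24.5, 8.78, 17.2 and 14.6 CPM in the hearts of nanoplastics mice 1 to 4, and 11.5, 6.53 and 11 CPM in control hearts. Nanoplastics mice 1, 3 and 4 lay above every control heart, and mouse 2 lay among them. The log2 change was 0.78 (SE 0.28, 95% interval 0.23 to 1.32, edgeR adjusted p = 0.138). It was 0.36 (edgeR adjusted p = 0.562) without the atrial library of nanoplastics mouse 1, 0.47 (0.599) in the ventricles alone and 0.11 (limma adjusted p = 0.941) with the sections at equal weight. With no filter on low counts it passed at an edgeR adjusted p of 0.0488 (log2 change 0.75).

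Fbn1 measured 9.79, 13.9, 9.86 and 10.3 CPM in nanoplastics hearts, and 6.71, 8.53 and 7.52 CPM in control hearts. Timp2 measured 32.4, 31.4, 28.5 and 39.9 CPM in nanoplastics hearts, and 26.5, 22.5 and 28.4 CPM in control hearts. In both genes every nanoplastics heart lay above every control heart, for Timp2 by 28.5 against 28.4 CPM at the closest, and the groups were apart in this way in 16.1% of all genes tested. The log2 change of Fbn1 was 0.51 (SE 0.22, edgeR adjusted p = 0.221), and that of Timp2 was 0.37 (SE 0.17, edgeR adjusted p = 0.237). The Timp2 value was 0.11 in the ventricles alone and 0.01 with the sections at equal weight, and the Fbn1 value 0.72 and 0.31.

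Counting the library of 4662 counts, nanoplastics hearts had on average more of their counts from the atrial section, 43.9 ± 17.6% against 27.2 ± 13.2% in control hearts, and fewer from the right ventricle, 14.3 ± 11.5% against 39.1 ± 4.2% (SD, n = 4 and 3). Their fibroblast markers summed to 1697, 2054, 1720 and 1487 CPM in nanoplastics hearts, and 1426, 1324 and 1583 CPM in control hearts. Per 1000 fibroblast-marker counts, Fbn1 had 5.83 ± 0.756 counts in nanoplastics hearts and 5.82 ± 1.26 in control hearts, Timp2 had 18 ± 5.22 in nanoplastics hearts and 19.5 ± 0.798 in control hearts, and Ltbp4 8.82 ± 3.57 in nanoplastics hearts and 7.23 ± 1.47 in control hearts. Timp3 had 20.4 ± 3.05 on that scale in nanoplastics hearts and 28.0 ± 4.92 in control hearts, and Timp4 14.1 ± 7.8 in nanoplastics hearts and 20.7 ± 0.235 in control hearts. The part of section weight and of fibroblast content in the whole-heart changes was not tested.

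In the other members the values of nanoplastics and control hearts overlapped. Timp3 averaged 38.0 ± 3.39 CPM in nanoplastics hearts and 37.4 ± 9.54 CPM in control hearts (SD, n = 4 and 3), with a log2 change of 0.03 (95% interval -0.31 to 0.37). Htra3 averaged 15.4 ± 4.14 CPM in nanoplastics hearts and 15.4 ± 3.18 CPM in control hearts (log2 change 0.04, interval -0.38 to 0.46). Timp4 averaged 25.4 ± 11 CPM in nanoplastics hearts and 27.3 ± 2.43 CPM in control hearts, and its nanoplastics values spread widely, at 30.9, 19.4, 13.5 and 37.9 CPM for mice 1 to 4. Mmp2 averaged 13.6 ± 2.77 CPM in nanoplastics hearts and 11.3 ± 3.97 CPM in control hearts. For Timp1 the means were 7.21 ± 4.01 CPM in nanoplastics hearts and 4.98 ± 1.33 CPM in control hearts. Tgfb1, the ligand stored in the complex, had 6.13 ± 3.1 CPM in nanoplastics hearts and 4.84 ± 1.22 CPM in control hearts.

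**Figure D2:**
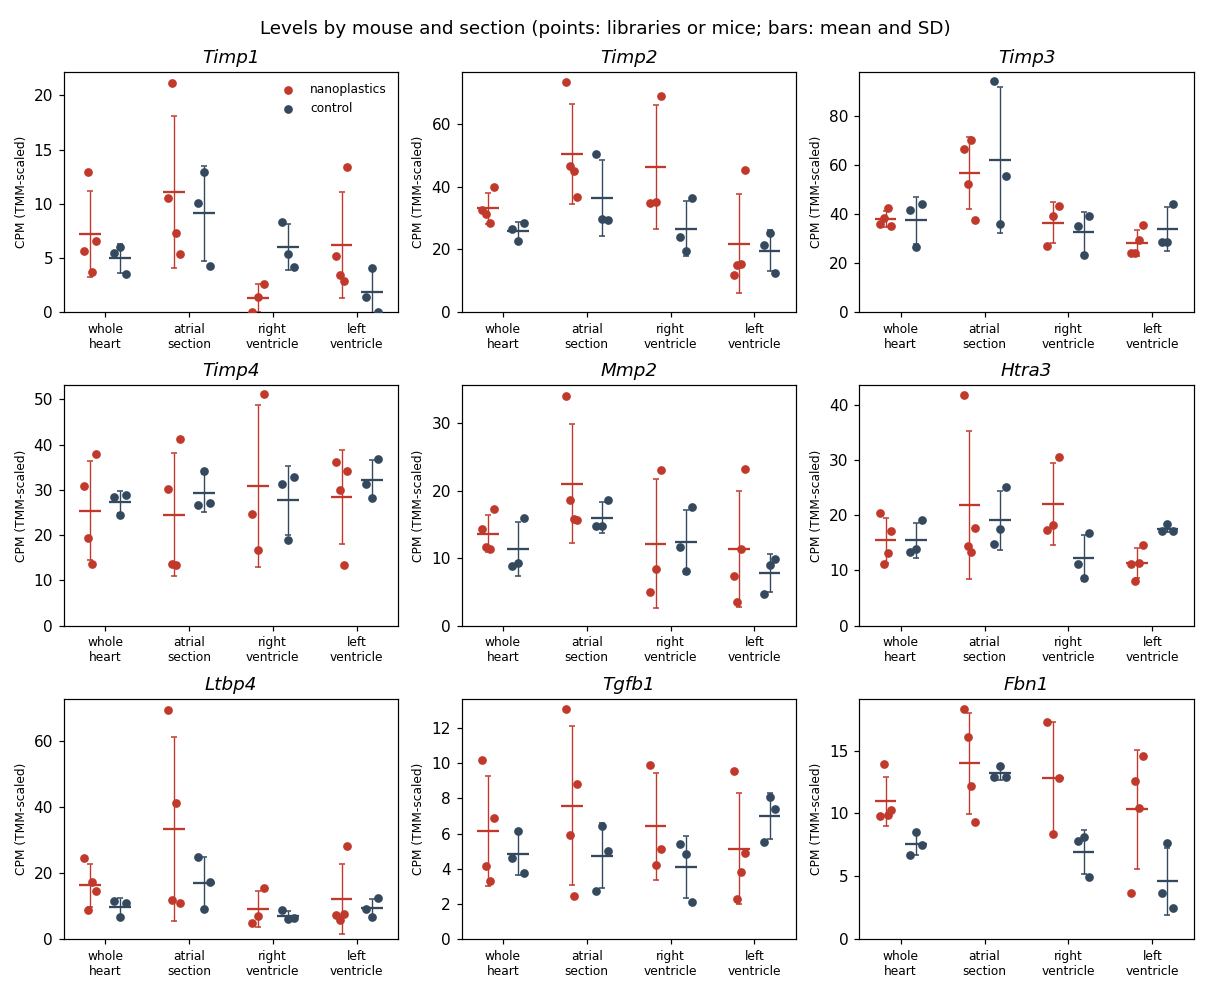
Levels of the 9 genes (vertical axes, TMM-scaled CPM) in the whole heart and in each section, with nanoplastics points left of control points, 1 point for each mouse or library, and bars for the mean and SD; the right ventricle of nanoplastics mouse 2 is left out. Fbn1 and Timp2 do not overlap between the groups in the whole heart, and the Htra3 groups lie apart in opposite directions in the right and the left ventricle.

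Within single sections no member passed either. The counts were 0 of 8 tested in the atrial section, 0 of 4 in the right ventricle and 0 of 6 in the left ventricle, beside 0%, 0.869% and 0.0551% of all genes tested, and DESeq2 passed 0 members in each. At an unadjusted p under 0.05 they were 0, 2 and 1, beside 12.3%, 13.5% and 14.1% of all genes. In the atrial section no member kept the groups apart, as 13% of the genes tested did. Smooth muscle and pericyte markers summed to 162 to 336 CPM in right ventricles of nanoplastics mice (n = 3) and 421 to 481 CPM in those of control mice (n = 3). Of 4 tested there, 1 passed, Rgs5, which was lower in nanoplastics mice (log2 change -0.871, edgeR adjusted p = 0.0456), and DESeq2 passed 0. The part of these cells in the right ventricular changes was not tested. Members that failed the count filter were Tgfb1 in all 3 sections, Timp1 and Ltbp4 in both ventricles, and Mmp2 and Fbn1 in the right ventricle.

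The Htra3 groups lay apart in opposite directions in the ventricles. In the right ventricle it measured 17.3, 18.2 and 30.6 CPM in nanoplastics mice 1, 3 and 4, and 11.2, 8.64 and 16.8 CPM in control mice. In the left ventricle it measured 11.1, 8.04, 11.4 and 14.6 CPM in nanoplastics mice 1 to 4, and 17.1, 18.3 and 17.2 CPM in control mice. The groups did not overlap in either ventricle, as in 22.3% of all genes tested in the right and 12.3% in the left. The log2 change was 0.83 in the right ventricle (SE 0.35, edgeR adjusted p = 0.24) and -0.67 in the left (SE 0.29, edgeR adjusted p = 0.278). Tested as a difference of the changes over all 21 libraries, with the mouse as a block, it came to 1.54 (SE 0.47, edgeR unadjusted p = 0.00167, adjusted p = 0.98). In this test 0 of 8 members passed, and 2 (Htra3 and Timp1) had an unadjusted p under 0.05. Of all 6269 genes 0% passed, 3% had an unadjusted p under 0.05, and DESeq2 passed 0 genes. The same difference between atrial section and left ventricle passed for 0 of 8 members tested, beside 0% of 6269 genes, with 1 member (Htra3, log2 difference 0.90, edgeR adjusted p = 0.901) at an unadjusted p under 0.05, beside 5.5% of all genes, and 0 members by DESeq2.

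Timp1 had 0, 1 and 1 counts in the right ventricles of nanoplastics mice 1, 3 and 4, against 17, 10 and 6 counts in control mice. These right ventricular libraries of nanoplastics mice held 438053 to 813585 counts and those of control mice 1333133 to 2042568, and on the CPM scale the values were 0, 1.4 and 2.55 in nanoplastics mice and 8.31, 5.4 and 4.2 in control mice. On the same scale a count of 0 allows up to 7.42 CPM in the library of nanoplastics mouse 1, which is above 2 of the 3 control values, so a difference of this size lies at the limit of the depth. The left ventricle held 5.16, 3.44, 2.85 and 13.4 CPM in nanoplastics mice and 1.39, 4.03 and 0 CPM in control mice. With no filter the log2 change was -2.24 in the right ventricle (SE 0.80, edgeR adjusted p = 0.282) and 1.22 in the left (SE 0.56, edgeR adjusted p = 0.531). Timp1 failed the count filter in both ventricles, so these values rest on a few counts in each library. In the fit over all 21 libraries Timp1 was tested. Its difference of the changes, right over left ventricle, was -3.28 (SE 1.1, edgeR unadjusted p = 0.00403). That value did not pass after adjustment and has the same limit of depth.

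Timp2 measured 34.6, 35.0 and 69.0 CPM in the right ventricles of nanoplastics mice 1, 3 and 4, and 24.0, 19.4 and 36.4 CPM in those of control mice. The Timp2 values overlapped through the control mouse at 36.4 CPM, and the log2 change was 0.76 (SE 0.28, edgeR adjusted p = 0.142). In the left ventricle the Timp2 values were 11.8, 14.9, 15.2 and 45.2 CPM in nanoplastics mice, and 21.3, 25.1 and 12.3 CPM in control mice, with a log2 change of -0.09 (SE 0.38). Fbn1 had 17.3, 8.39 and 12.8 CPM in right ventricles of nanoplastics mice and 7.82, 8.1 and 4.9 CPM in those of control mice, on 5 to 16 counts a library. In the atrial section, Ltbp4 had the largest log2 change of the 8 members tested, 0.79 (SE 0.75, edgeR adjusted p = 0.733), with 2 nanoplastics libraries above and 2 within the control range. The other atrial changes lay between -0.19 (Timp4) and 0.42 (Timp2).

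**Figure D3:**
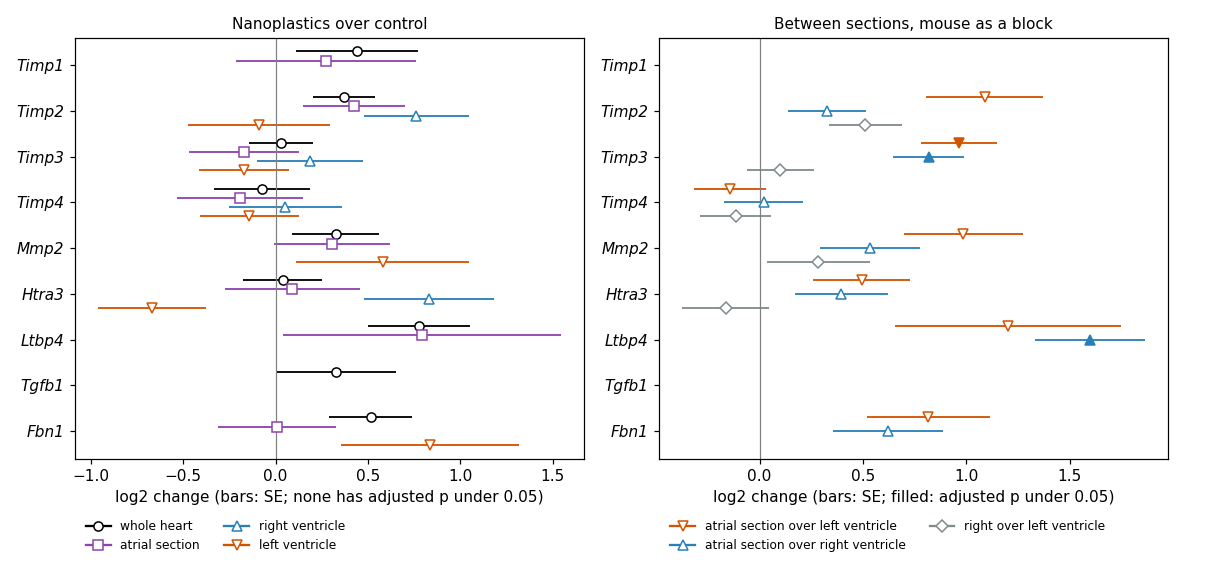
Log2 changes (horizontal axes) of the 9 genes, with bars of 1 SE; nanoplastics over control mice in the whole heart and each section on the left, and section over section with the mouse as a block on the right, with filled symbols for an edgeR adjusted p under 0.05. Only Timp3 (atrial section over each ventricle) and Ltbp4 (atrial section over right ventricle) are filled, and genes without a symbol failed the count filter.

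Other genes of the same systems were counted from lists by role. In the whole heart, 1 of 9 tested protease inhibitors outside the TIMP family passed, beside 2.56% of all genes tested, with 1 passing in DESeq2 as well. This was Cst3, the gene of the cysteine protease inhibitor cystatin C, at 2072, 2107, 1814 and 2012 CPM in nanoplastics hearts and 1467, 1338 and 1247 CPM in control hearts. The groups did not overlap, as in 16.1% of all genes tested. The log2 change was 0.57 (SE 0.12, edgeR adjusted p = 0.025). The edgeR adjusted p became 0.064, 0.141 and 0.0796 without nanoplastics mouse 2, control mouse 2 or control mouse 3. At equal weight of the sections the limma adjusted p was 0.754 (log2 change 0.32). None passed among 4 tested metalloproteinases, 7 ADAM and ADAMTS proteases and 3 HTRA proteases, where 1, 2 and 0 had an unadjusted p under 0.05 and DESeq2 passed 0 in each.

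In the list of LTBP, fibrillin and elastic fibre genes, 2 of 11 tested genes rose in nanoplastics hearts, while 2.56% of all genes passed in either direction. All 11 had a positive log2 change with TMM, with a median of 0.51 against -0.03 over all genes. With library totals alone 9 of 11 were positive, and with the sections at equal weight 6 of 11. Both genes that rose encode fibulin-type matrix proteins. Fbln1 had 20.3, 13.9, 15.7 and 20.4 CPM in nanoplastics hearts, against 7.41, 6.35 and 12.2 CPM in control hearts (log2 change 1.09, SE 0.23, edgeR adjusted p = 0.0256). Efemp1 had 21.5, 12, 15.3 and 20.7 CPM in nanoplastics hearts, against 9.71, 8.71 and 11 CPM in control hearts (log2 change 0.86, SE 0.22, edgeR adjusted p = 0.0416). The groups did not overlap in either gene, as in 16.1% of all genes tested. In the ventricles alone the log2 change of Fbln1 was 0.52 (edgeR adjusted p = 0.671) and that of Efemp1 0.62 (0.205), and at equal weight of the sections the changes were 0.44 and 0.43 (limma adjusted p = 0.784 and 0.785). Fbln1 lost its pass without nanoplastics mouse 1, nanoplastics mouse 4 or control mouse 2 (0.071, 0.0515 and 0.141) and without the atrial library of nanoplastics mouse 1 (0.0668). Efemp1 lost it when any of 5 of the 7 mice was left out, namely nanoplastics mice 1 and 4 and control mice 1, 2 and 3 (0.0776 to 0.186), and with library totals alone (0.0871). Without the atrial libraries of nanoplastics mice 1 and 4 the list had no pass (0.106 for Fbln1 and 0.104 for Efemp1).

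TGF-beta ligands, activators, receptors and SMADs gave 0 of 17 tested (2 with an unadjusted p under 0.05 and 0 by DESeq2), with a median log2 change of -0.06. TGF-beta response genes gave 0 of 14 (2 unadjusted, 1 by DESeq2), with a median of 0.20. Fibroblast markers gave 1 of 10, Dcn (log2 change 0.55, edgeR adjusted p = 0.0466), and all 10 had a positive log2 change with a median of 0.43. The list had 0 passes and 6 of 10 positive with library totals alone, 0 and 9 of 10 without the atrial library of nanoplastics mouse 1, 0 and 6 of 9 in the ventricles alone, and 0 and 5 of 10 with a median of 0.01 at equal weight of the sections. Heart muscle markers gave 1 of 7, Tnni3, and ventricular muscle markers 1 of 2 tested, Myl2 (log2 change 0.53 and 0.54, edgeR adjusted p = 0.0183 and 0.025). Atrial muscle markers gave 0 of 3 tested with a median log2 change of 6.71, while DESeq2 passed all 3. Their sums in the atrial sections overlapped between the groups, at 10.1 to 38990 CPM in nanoplastics mice (n = 4) and 19.9 to 297 CPM in control mice (n = 3). Red blood cell markers gave 0 of 4 tested with a median of 0.60. The part of these cell types in the whole-heart changes was not tested.

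Between sections, the same lists gave a few further genes that were higher in the atrial section. Col1a2, the gene of a type I collagen chain, averaged 32.6 ± 13.6 CPM in atrial sections, 16.9 ± 10.6 CPM in right ventricles and 12.7 ± 6.4 CPM in left ventricles (SD, n = 7, 6 and 7), and its log2 difference was 1.34 over the left ventricle (SE 0.22, edgeR adjusted p = 0.0165) and 0.94 over the right (SE 0.22, edgeR adjusted p = 0.0103). Serpinf1, the gene of the secreted serpin PEDF, averaged 29.9 ± 8.65 CPM in atrial sections and 14.5 ± 3.22 CPM in right ventricles (log2 difference 1.07, SE 0.22, edgeR adjusted p = 0.00122). Postn, a matricellular gene that responds to TGF-beta, averaged 30.8 ± 12.1 CPM in atrial sections and 15.9 ± 6.67 CPM in right ventricles (log2 difference 0.78, SE 0.21, edgeR adjusted p = 0.0498). Over the left ventricle Col1a2 lost its pass without nanoplastics mouse 2, nanoplastics mouse 3 or control mouse 1 (edgeR adjusted p = 0.121, 0.186 and 0.164). Over the right ventricle it lost it without nanoplastics mouse 1, 2 or 3 or control mouse 1 (0.139, 0.249, 0.0569 and 0.0654), with library totals alone (0.0939) and without the library of 4662 counts (0.235). Postn lost its pass without nanoplastics mouse 1 or 2 or control mouse 1 or 2 (0.108 to 0.402), with library totals alone (0.128) and without the library of 4662 counts (0.332). Serpinf1 kept its pass without that library (0.0275) and lost it without control mouse 1 (0.0636). Without the atrial library of nanoplastics mouse 1, Col1a2 and Postn did not pass over the right ventricle (edgeR adjusted p = 0.089 and 0.315). By DESeq2, none of Col1a2, Serpinf1 and Postn passed over the right ventricle.

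Across the 20 libraries Timp2, Timp3, Mmp2 and Ltbp4 varied together, and the other members followed them to differing degrees. As a description over libraries that share mice, sections and depth, Pearson's r of log2 CPM was 0.781 between Timp3 and Ltbp4, 0.724 between Mmp2 and Ltbp4, 0.716 between Timp2 and Mmp2 and 0.67 between Timp3 and Mmp2. With the mean of each section and treatment group removed, these values were 0.737, 0.653, 0.689 and 0.527, and that of Mmp2 and Htra3 was 0.764. Htra3 had r from 0.485 to 0.643 with these 4 genes, Fbn1 from 0.342 to 0.652 and Timp1 from 0.372 to 0.586. With group means removed, Timp3 had 0.0903 with Timp1 and -0.0533 with Fbn1. Timp4 and Tgfb1 had r between -0.255 and 0.345 and between -0.163 and 0.448 with the other members.

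**Figure D4:**
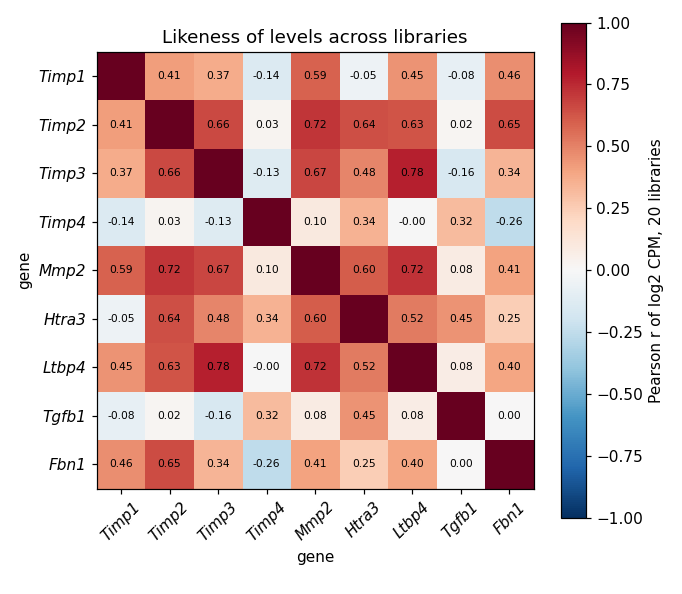
Pearson's r of log2 CPM between each pair of the 9 genes over 20 libraries, with red for positive and blue for negative values. The block of Timp2, Timp3, Mmp2 and Ltbp4 holds values from 0.627 to 0.781, and the rows of Timp4 and Tgfb1 are pale.

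Among 3295 genes with a mean of at least 20 CPM, those most like each member were found by the same r. Timp2 was closest to Bgn, a small matrix proteoglycan gene (0.862), then Capns1 (0.844) and Vim, the gene of the intermediate filament of mesenchymal cells (0.839). Ltbp4 was closest to Gsn (0.84), an actin-severing protein gene that is strong in fibroblasts, then Ccdc80 (0.834) and Vim (0.832). Mmp2 was closest to Serpine2, a secreted protease inhibitor gene (0.797), Bgn (0.782) and Cpe (0.766). Timp3 stood nearest to Fhl1 (0.86), Tpm2 (0.841), a tropomyosin gene of smooth and slow muscle, and Igfbp5 (0.831). For Timp4 the closest were Laptm4b (0.781), Polr2e (0.76) and Alpk2 (0.734), for Htra3 Actg1 (0.754), Maged1 (0.752) and Hspb1 (0.74), and for Fbn1 Rtn4 (0.76), Pcbp2 (0.742) and Golgb1 (0.727).

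Some members overlap other genes in the GENCODE M21 annotation, and whether reads were counted by strand is not given. Timp1, Timp3 and Timp4 lie inside the synapsin genes Syn1, Syn3 and Syn2 on the opposite strand. Over all libraries Timp3 had 953 counts and Syn3 12, Timp4 had 689 and Syn2 32, and the deposited table has no row named Syn1. Timp2 overlaps Cep295nl (1 count) on the same strand, and Fbn1 overlaps Gm9913 (4 counts) on the opposite strand. Only whole gene spans were compared, so whether reads of these partners could be mixed up in the counts was not examined. Transcript length also moved with the whole-heart comparison, where the fifth of genes with the shortest transcripts had a median log2 change of 0.18 and the fifth with the longest -0.10. Fbn1 has a longest transcript of 11971 nucleotides, at least as long as those of 98.9% of the genes tested, and Timp1 one of 883 nucleotides, and removing the length trend left Fbn1 at 0.60 (edgeR adjusted p = 0.195) and Ltbp4 at 0.88 (0.174). It also took the pass from Timp3 over the left ventricle (0.0505) and from Timp3 and Ltbp4 over the right (0.0945 and 0.0674).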

How the data were processed

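RNA of 3 heart sections from 7 mice was captured on oligo-dT beads and barcoded at the 5′ end by template switching before the wells were pooled, per the labels' protocols. Reads were aligned with STAR, per the submitters' processing notes, which give no version. Genome build, annotation, counting program, strand use and molecular identifiers: not given in the sources used here. Copies of a molecule may therefore have been counted more than once, and the floors reflect counting error alone. The deposited table holds raw counts for 20960 gene symbols in 21 libraries.

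Tools were edgeR 4.0.16, DESeq2 1.42.0 and limma 3.58.1, run under R 4.3.3. Each comparison kept genes passing filterByExpr, scaled by TMM, and used edgeR's robust quasi-likelihood test with Benjamini-Hochberg adjustment over all genes tested, at an adjusted p under 0.05. The fits cover all genes, and the members' rows are printed. Sections and the differences of the nanoplastics change between sections had the mouse as a block, because a mouse's sections share an animal. Nanoplastics and control mice are different animals and had no block. Standard errors are the log2 change over the root of F. Nothing in the labels says more on how mice were housed or processed, so p-values of the treatment comparisons measure the spread between these mice. Where the mouse was a block, p-values measure how far the section differences vary from mouse to mouse.

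Members, lists and tests were chosen with earlier results of these data known. Besides the members, the named genes are up to 3 passing genes per list and direction by smallest p, and, for members with a mean of at least 10 counts, the 3 most alike genes. Marker genes that passed were named after their values were seen. The steps were tested on simulated counts. Alternatives were scaling, filter, DESeq2, transcript length, the block, each mouse left out, single libraries left out, the ventricles alone and sections at equal weight. The run at equal weight kept the library of 4662 counts. Chosen after seeing the data were the fits in mice of 1 group and those without the atrial libraries of nanoplastics mice 1 and 4.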

Additional observations from a re-analysis of the deposited data

Results flagged for a closer look

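In 27 groups of 4 values, a sample that lay far from the other 3 by Dixon's criterion was found 5 times. The criterion's rate of about 1 in 20 groups holds for independent groups of normally distributed values. These groups share mice and libraries, and whole-heart values are sums of the sections, so the count cannot be set against that rate. Right ventricles of nanoplastics mice and all control groups, with 3 values each, were not examined in this way. In the atrial section of nanoplastics mouse 1, Htra3 had 41.8 CPM, against 13.4 to 17.7 CPM in the other nanoplastics mice. The same library had 34.0 CPM of Mmp2, against 15.7 to 18.6 CPM in the others. In the left ventricle of nanoplastics mouse 4, Timp2 had 45.2 CPM, against 11.8 to 15.2 CPM in the other nanoplastics mice, and Ltbp4 had 28.1 CPM, against 5.74 to 7.6 CPM. Fbn1 in the whole heart of nanoplastics mouse 2 had 13.9 CPM, against 9.79 to 10.3 CPM in the others. The Htra3 groups lay apart in opposite directions in the right and the left ventricle, and the log2 difference of the changes was 1.54 (edgeR adjusted p = 0.98).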

How the results depend on the processing

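No member that passed reversed its direction under any alternative run. In the whole heart the count of members that passed was 0 throughout, apart from 1 (Ltbp4) with no filter on low counts. For atrial section over left ventricle, where 1 passed, the count was 4 with no filter, 2 by DESeq2, 0 with the length trend removed, 0 with no replicate block, 0 in nanoplastics mice only, 0 in control mice only and 4 without the atrial libraries of nanoplastics mice 1 and 4. Leaving out each mouse gave 0 to 4. For atrial section over right ventricle, where 2 passed, it was 1 at a mean of at least 20 counts, 0 by DESeq2, 0 with the length trend removed, 0 with no replicate block, 1 without the right ventricular library of nanoplastics mouse 2, 0 in nanoplastics mice only and 1 in control mice only, and 0 to 2 without each mouse. The counts in the other 6 comparisons stayed at 0. Values of members that did not pass changed sign in 23 of 170 alternative values in the whole heart, 14 of 117, 9 of 59 and 7 of 81 in the atrial section, right and left ventricle, and 0 of 105 and 6 of 91 between the atrial section and the left and right ventricle. The cause of these shifts was not tested.

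Over all genes, the whole-heart count of 217 became 768 with library totals alone (43 of them higher, against 152 of 217), 317 by DESeq2, 62 with the length trend removed, 0 without control mouse 2 and 0 at equal weight of the sections. The atrial section had 0 as reported and 106 at most, the right ventricle 39 as reported, 0 by DESeq2 and 215 with library totals, and the left ventricle 3 as reported and 52 by DESeq2. Atrial section over left ventricle spanned 0 to 133 (8 as reported), and over right ventricle 0 to 92 (30 as reported). Mice that share a number across the treatment groups are different animals. As a check of the pairing, the deviations of mice numbered 1, 2 and 3 had r of 0.0682, 0.0902 and -0.0426 across 8485 genes, and not every mouse was closest to its own number. A replicate block left 0 members passing in each treatment comparison, and moved the count over all genes to 313 in the whole heart, 106 in the atrial section, 4 in the right and 0 in the left ventricle. Few members have more than 100 counts in a library, so small changes cannot be seen at this depth.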
